A study of Mus musculus with 20 samples.

Results

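The genes described here are 46 mouse genes of DNA replication and repair, taken by symbol from a table of 25219 genes measured by RNA-seq in adipose tissue. All 46 were in the table. The samples were inguinal white adipose tissue (iWAT), a subcutaneous fat depot, and brown adipose tissue (BAT), the heat-producing depot, from male Control and Ai-α4KO mice on a mixed C57Bl/6 background. Both genotypes carried floxed alleles of the gene for α4 (Igbp1), a binding protein of the catalytic subunit of protein phosphatase 2A, and both were given tamoxifen, with injections beginning at 2 months of age. Ai-α4KO mice also carried an Adiponectin-CreERT2 transgene, in which the promoter of an adipocyte hormone gene drives a tamoxifen-dependent recombinase, whereas Control mice, labelled WT in the sample descriptions, lacked it. Recombination was therefore directed to adipocytes, and the other cells of the tissue kept the gene. Tissue was taken a week after recombination. Each of the 4 groups (Control iWAT, Ai-α4KO iWAT, Control BAT, Ai-α4KO BAT) held 5 libraries with 24023371 to 50384446 counts each. Igbp1 was at 61.1 to 81.4 CPM (counts scaled to the effective library size) in Control iWAT and at 10.7 to 11.7 CPM in Ai-α4KO iWAT, and at 82.6 to 97.6 CPM in Control BAT and 12.9 to 23.3 CPM in Ai-α4KO BAT.

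A dividing cell copies its genome in each cycle. Origin recognition proteins, Cdc6 and Cdt1 load the MCM helicase on DNA in G1, kinases and the Cdc45 and GINS proteins switch it on in S phase, and polymerases, the PCNA clamp, ligase and nucleotide-making enzymes then copy the strands while chromatin factors restore histones and DNA methylation. Transcription of many of these genes peaks at the G1/S transition under E2F transcription factors. Mature adipocytes are regarded as non-dividing, while progenitors, endothelial cells and macrophages of adipose tissue can divide.

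Some libraries stood apart before any comparison. Control iWAT libraries 1 and 4 carried lymphocyte transcripts. Cd79a, a part of the B cell receptor, was at 170 and 63.4 CPM in them and at 1.95 to 2.39 CPM in the other 3 Control iWAT libraries, and the T cell gene Cd3e was at 35.0 and 37.5 CPM against 0.956 to 1.65 CPM. Transcripts of 6 skeletal muscle genes summed to 5098 CPM in Control iWAT library 4 and 4118 CPM in Ai-α4KO iWAT library 1, against 3.45 to 143 CPM in the other iWAT libraries, and to 627 to 7759 CPM in Control BAT and 9679 to 28303 CPM in Ai-α4KO BAT. Counts of members called in iWAT, with an interaction or between Control depots are given below with and without libraries 1 and 4. Other values that rest on Control iWAT, among them single-gene changes, non-overlap counts and marker counts, include both libraries.

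Most of the replication and repair genes were higher in Ai-α4KO tissue, and none was called lower. A gene was called when edgeR's quasi-likelihood test gave a Benjamini-Hochberg adjusted p below 0.01 and the change was at least 2-fold. In iWAT 29 of the 46 members were called higher and 0 lower, where 11.3% of all 14604 genes tested were called higher and 10.7% lower. In BAT 24 were called higher and 0 lower, where 18.2% of 14344 genes tested were called higher and 13.3% lower. At an adjusted p below 0.01 with no limit on fold, 37 members were higher and 0 lower in iWAT, where 3140 and 2749 of 14604 genes were. In BAT 29 members were higher and 3 lower at that limit, where 3582 and 3560 of 14344 genes were. The median log2 fold change over the members was 1.27 in iWAT and 1.07 in BAT, beside 0.01 and -0.03 over all genes tested. The estimates of all 46 members were above 0 in iWAT, and those of 41 were above 0 in BAT. Without Control iWAT libraries 1 and 4, 30 members were called higher in iWAT, where 11.9% of genes tested were. Under scaling by library size alone, the median of all genes rose to 0.13 in iWAT and 0.23 in BAT. With that scaling 31 and 28 members were called higher, where 13% and 22.7% of genes tested were. In both tissues 0 members were called lower, where 8.68% and 8.82% of genes tested were.

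The Control and Ai-α4KO libraries could be separated completely for most members. In iWAT all 5 Ai-α4KO libraries lay above all 5 Control libraries for 34 members and below them for 0, where 20.7% and 18.4% of genes tested did so. In BAT they lay above for 30 members and below for 3 (Gmnn, Cdc45 and Dut), where the shares of all genes were 23.5% and 24.2%. Of the members, 20 were called higher in both tissues, 9 in iWAT and not in BAT, 4 in BAT and not in iWAT, and 13 in neither. The share of all genes called higher in both tissues was not calculated, so joint counts here and below are a description. The comparisons in iWAT and BAT share no library, and whether both tissues came from the same mice is not stated. In bulk tissue, fewer cells of a type and less RNA per cell cannot be told apart, and the same holds for more cells and more RNA.

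**Figure D1:**
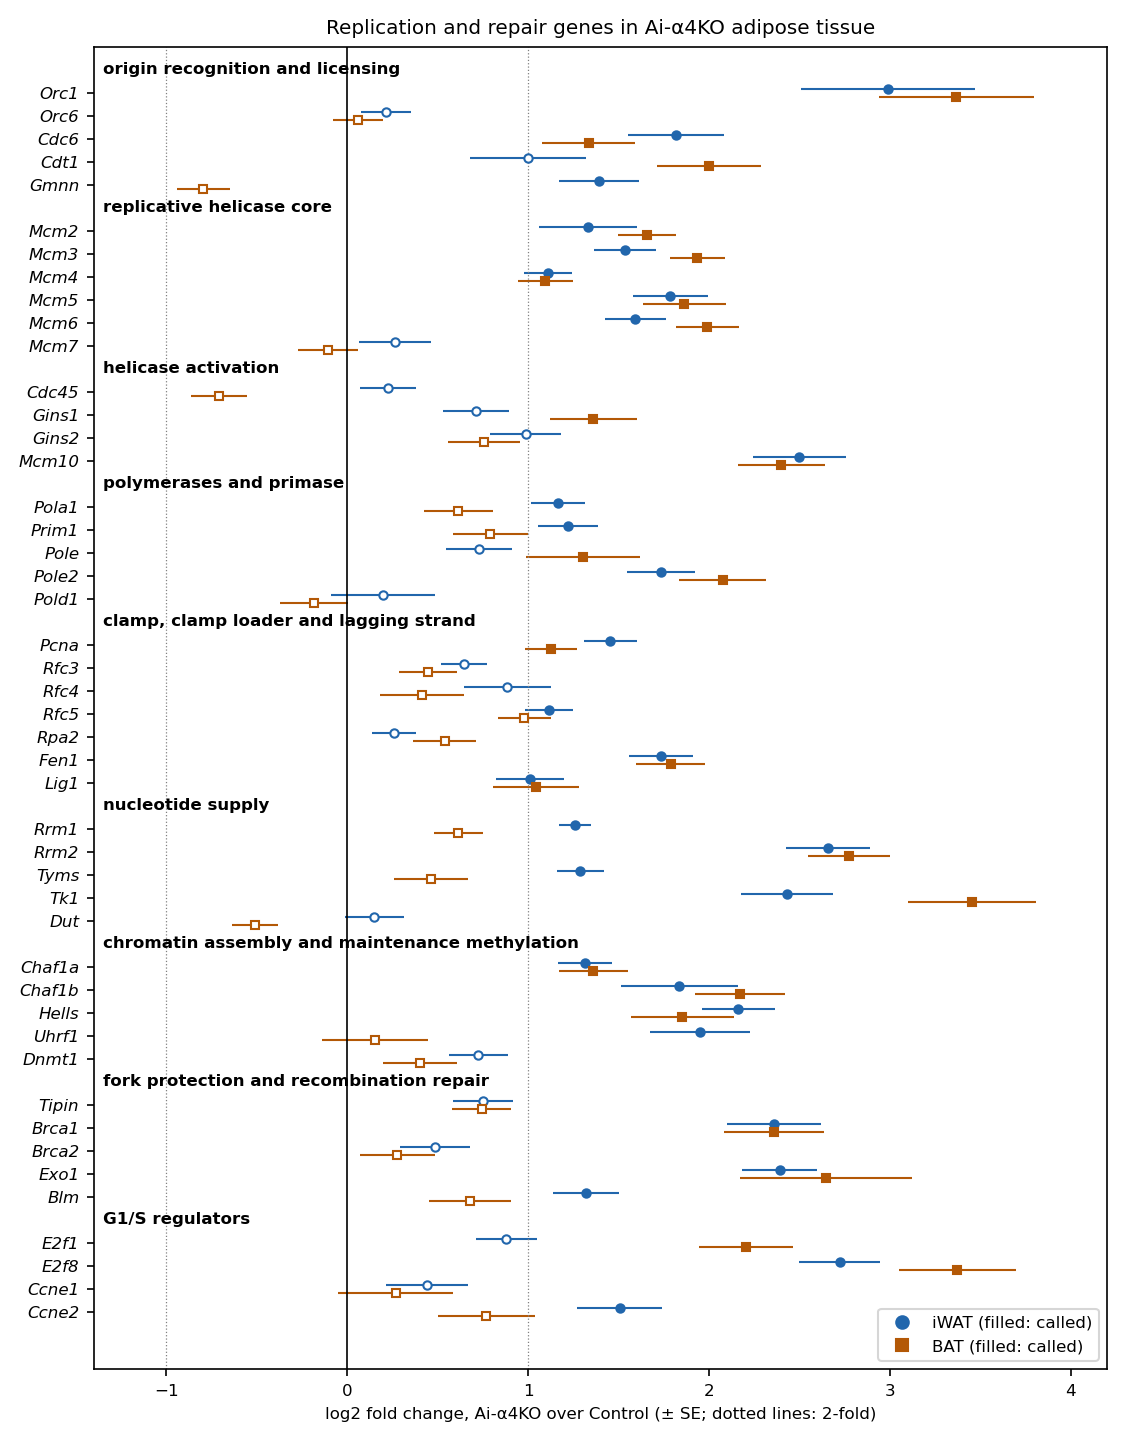
Log2 fold change of Ai-α4KO over Control for the 46 members, grouped by role, in iWAT (circles) and BAT (squares), with standard errors derived from edgeR's F statistic. Filled symbols were called. Orc1, Tk1 and E2f8 lie farthest to the right, Mcm7 and Pold1 lie near 0 in both tissues, and Gmnn lies above 0 in iWAT and below 0 in BAT.

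The promoters of the members with the largest changes are shown first, because E2F motifs are known from promoters of S phase genes and CCAAT boxes from those of mitotic genes. RefSeq promoter windows (GRCm38.p6, 250 bases before to 50 after a transcription start) were searched on both strands for the E2F consensus in 4 spellings, TTTCCCGC, TTTCGCGC, TTTGCCGC and TTTGGCGC, and for CCAAT. Matches to different spellings on opposite strands can overlap, as in Mcm5. Each line below gives 200 bases before to 20 after the start, 5′ to 3′, with E2F motifs in capitals, for the member of largest mean change in each of 4 roles among those that hold the motif (Orc1, of the origin recognition complex; Hells, a chromatin remodeller; Pole2, a polymerase subunit; Mcm5, a helicase subunit) and for E2f8, a repressive E2F family member and the member of largest change with no match.
Orc1 (chr4:108579254-108579473, plus strand): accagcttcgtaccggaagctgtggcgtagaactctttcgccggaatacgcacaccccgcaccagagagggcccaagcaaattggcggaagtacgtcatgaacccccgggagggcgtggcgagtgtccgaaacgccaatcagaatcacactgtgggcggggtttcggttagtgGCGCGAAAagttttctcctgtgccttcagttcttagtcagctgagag
Hells (chr19:38930790-38931009, plus strand): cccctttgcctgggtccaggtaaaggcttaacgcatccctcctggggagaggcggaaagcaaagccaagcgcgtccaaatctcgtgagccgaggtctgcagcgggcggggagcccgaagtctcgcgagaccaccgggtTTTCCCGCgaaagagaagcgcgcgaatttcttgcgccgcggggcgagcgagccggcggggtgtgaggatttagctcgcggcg
Pole2 (chr12:69228171-69228390, minus strand): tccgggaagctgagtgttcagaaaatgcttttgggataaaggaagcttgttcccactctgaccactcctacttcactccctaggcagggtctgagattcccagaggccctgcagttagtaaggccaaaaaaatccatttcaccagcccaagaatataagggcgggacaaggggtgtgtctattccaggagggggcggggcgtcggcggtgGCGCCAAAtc
Mcm5 (chr8:75109309-75109528, plus strand): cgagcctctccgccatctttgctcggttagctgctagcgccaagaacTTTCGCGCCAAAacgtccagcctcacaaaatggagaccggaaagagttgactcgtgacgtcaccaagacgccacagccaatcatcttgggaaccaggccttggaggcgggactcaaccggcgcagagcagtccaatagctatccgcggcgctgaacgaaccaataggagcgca
E2f8 (chr7:48881577-48881796, minus strand): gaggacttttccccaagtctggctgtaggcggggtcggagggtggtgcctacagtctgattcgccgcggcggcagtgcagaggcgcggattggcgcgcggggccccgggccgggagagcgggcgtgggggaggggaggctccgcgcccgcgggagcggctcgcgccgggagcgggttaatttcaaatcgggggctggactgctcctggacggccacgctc

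Windows were searched for 38 of the 46 members, and those of Ccne2, Exo1, Gins1, Gins2, Gmnn, Mcm4, Pole and Tipin were not analysed here. The E2F motif was in 16 of these 38 members, or 35.6% of their 45 windows, beside 3.64% of the 13839 windows of genes tested in iWAT and 2.26% of all 32851 windows. CCAAT was in 22 of the 38 members, or 55.6% of their windows, beside 37.4% of all windows. Among 9 mitosis genes with windows an E2F motif was in 1 and CCAAT in 8. The E2F motif was in 11 of 27 members called higher in either or both tissues and in 5 of 11 called in neither (Mcm7, Pold1, Brca2, Rfc3 and Dnmt1), and it was absent from the windows of E2f8, Tk1, Rrm2, Brca1, Fen1 and Mcm10. A match is a description of these letters, not a binding site.

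**Figure D2:**
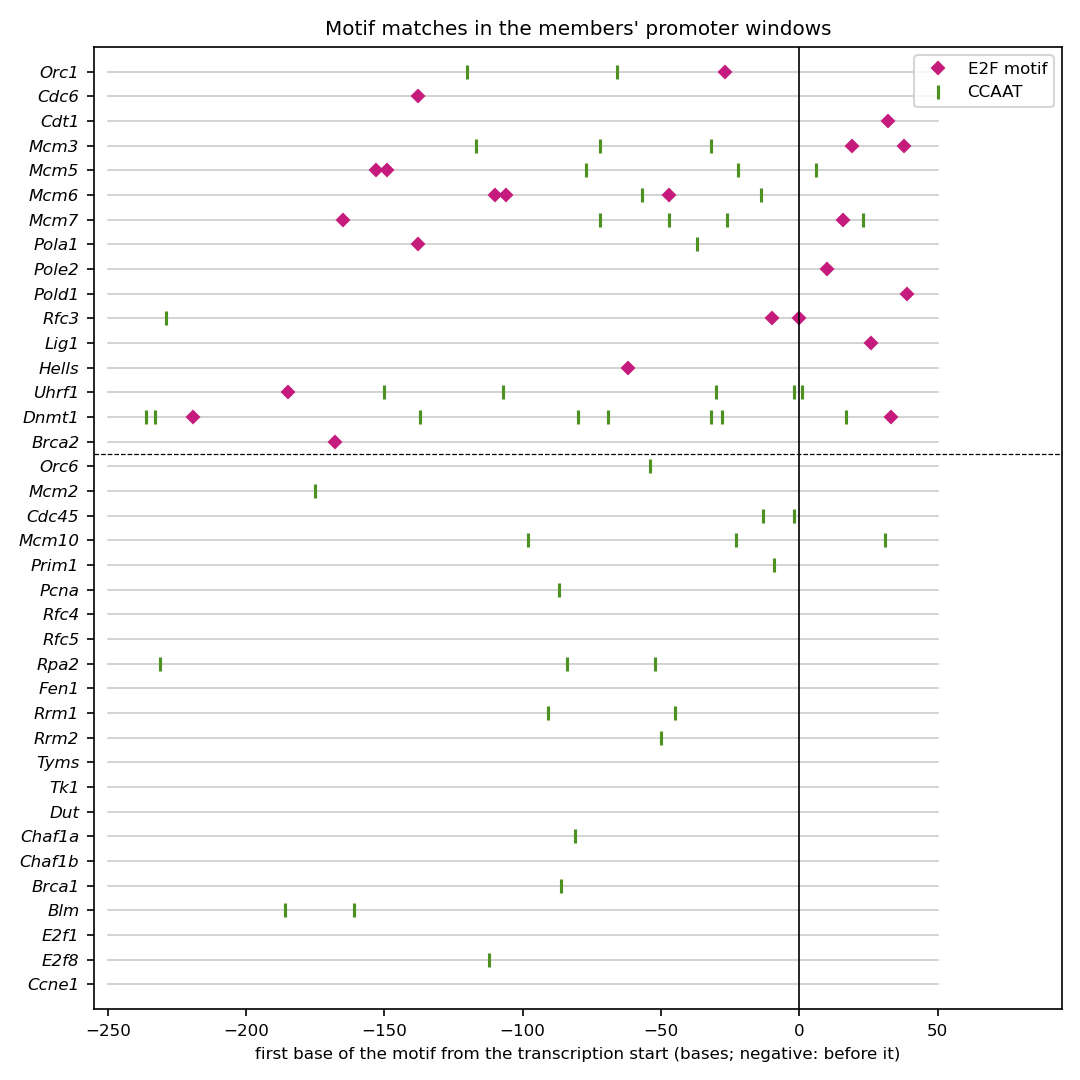
Positions of E2F motifs (diamonds) and CCAAT (bars) from the transcription start in the windows of 38 members, on an axis in bases with negative values before the start; members with several starts are drawn on 1 line. The 16 members above the dashed line hold an E2F motif, Mcm7 and Dnmt1 as well as Orc1 and Mcm5.

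Origin licensing genes held both the largest mean change and the one pair of opposite changes. Orc1, the large subunit of the origin recognition complex, was among the least abundant members in Control tissue. It shares 10.8% of its exon bases with Gm12743 on the opposite strand. In iWAT Orc1 was at 0.428, 0.0330, 0.399, 0.402 and 0.249 CPM in the Control libraries and at 2.04, 3.45, 2.25, 1.55 and 2.87 CPM in the Ai-α4KO libraries. In BAT Orc1 was at 0.0434, 0.109, 0.0874, 0.102 and 0.0771 CPM in the Control libraries and at 1.04, 1.37, 1.004, 0.416 and 0.729 CPM in the Ai-α4KO libraries. No library of one genotype reached the range of the other in either tissue. The log2 fold change was 2.99 ± 0.48 (SE, n = 5 per group) in iWAT with an edgeR adjusted p of 0.000337 and 3.37 ± 0.43 in BAT with an adjusted p of 2.97e-05. The Control BAT libraries held 1 to 3 Orc1 counts each, 11 in all, against 158 in Ai-α4KO BAT, a ratio of 10.9 with an exact 95% interval of 5.93 to 22.3 that covers counting error only. Cdc6, which loads the helicase with Cdt1, rose by 1.82 ± 0.26 in iWAT and 1.33 ± 0.26 in BAT. Cdt1 rose by 2.0 ± 0.29 in BAT and stood at 0.998 ± 0.32 in iWAT, where its adjusted p of 0.0212 missed the threshold. Orc6, a small subunit of the recognition complex, gave 0.21 ± 0.14 in iWAT and 0.06 ± 0.14 in BAT, and was called in neither.

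Gmnn encodes geminin, which binds Cdt1 and blocks renewed loading of the helicase. In iWAT Gmnn was at 6.17, 8.90, 10.7, 8.75 and 7.09 CPM in the Control libraries and at 13.1, 22.8, 25.7, 18.997 and 28.3 CPM in the Ai-α4KO libraries, and it was called higher with a log2 fold change of 1.39 ± 0.22 and an edgeR adjusted p of 0.000305. In BAT Gmnn was at 32.4, 30.5, 41.3, 37.3 and 38.0 CPM in the Control libraries and at 16.6, 16.5, 25.1, 22.8 and 22.5 CPM in the Ai-α4KO libraries. Every Ai-α4KO library was thus above Control in iWAT and below it in BAT, where the log2 fold change of -0.79 ± 0.15 had an adjusted p of 0.000538 but stayed under 2-fold. The genotype difference in BAT minus that in iWAT was -2.16 ± 0.26 on the log2 scale, with an adjusted p of 0.000151. Gmnn was also the one member called higher in Control BAT than in Control iWAT, and its FPKM, which divides by transcript length, was below that of Pcna alone among the members in Control BAT (29.8 against 35.2, means over 5 libraries). The log2 ratio of Cdt1 to Gmnn CPM ran from -5.95 to -4.45 in Control BAT and from -2.65 to -1.80 in Ai-α4KO BAT, which do not overlap. In iWAT both genes moved upward and the ratios overlapped, at -2.57 to -0.11 in Control and -2.17 to -0.75 in Ai-α4KO libraries.

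**Figure D3:**
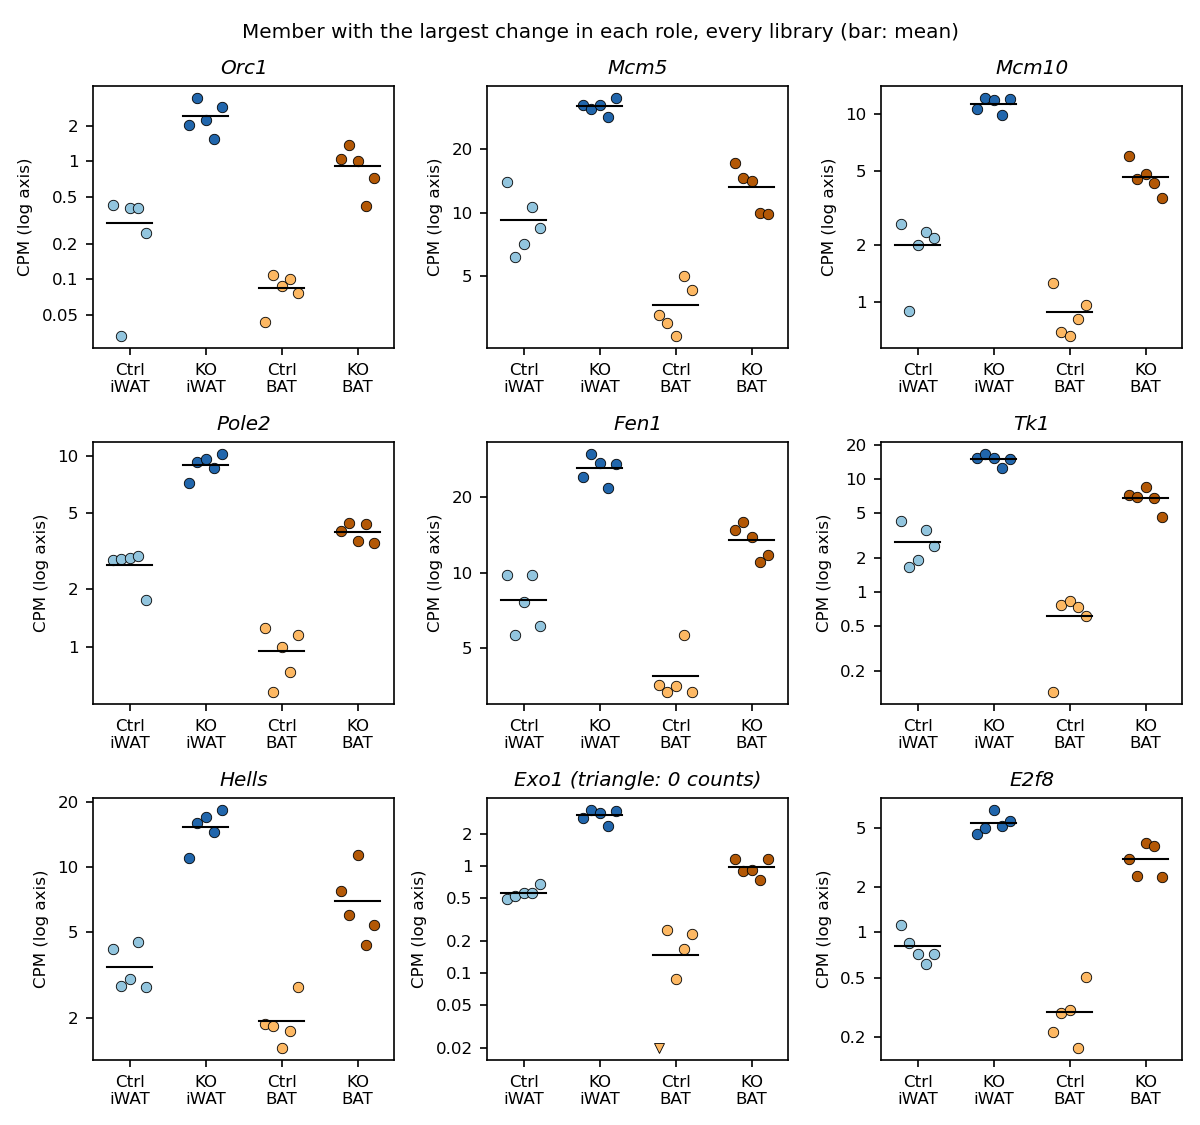
CPM in each of the 20 libraries, on log axes, for the member with the largest mean change in each of 9 roles; CPM were scaled within each tissue, bars mark group means, and the triangle is Exo1 at 0 counts in Control BAT library 1. In all 9 panels the Ai-α4KO libraries lie above the Control libraries of the same tissue.

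The helicase subunits rose with a single exception. Mcm2 to Mcm7 encode the ring that unwinds DNA, and Mcm2, Mcm3, Mcm4, Mcm5 and Mcm6 were called higher in both tissues, by 1.11 to 1.79 in iWAT and 1.09 to 1.99 in BAT on the log2 scale. In iWAT Mcm5 was at 14.03, 6.17, 7.06, 10.6 and 8.45 CPM in the Control libraries and at 32.6, 31.3, 32.5, 28.7 and 35.2 CPM in the Ai-α4KO libraries. In BAT Mcm5 was at 3.25, 2.98, 2.58, 4.97 and 4.28 CPM in the Control libraries and at 17.3, 14.7, 14.1, 9.99 and 9.84 CPM in the Ai-α4KO libraries. The genotypes did not overlap, and Mcm5 rose by 1.79 ± 0.21 in iWAT (edgeR adjusted p = 3.48e-05) and 1.86 ± 0.23 in BAT (adjusted p = 2.24e-05). Mcm7 behaved differently. It was at 45.6, 33.7, 44.8, 23.5 and 22.5 CPM in Control iWAT and at 45.5, 41.99, 39.1, 37.8 and 40.1 CPM in Ai-α4KO iWAT, and at 19.5, 18.7, 20.8, 27.3 and 14.95 CPM in Control BAT and 22.6, 20.6, 17.8, 17.6 and 15.3 CPM in Ai-α4KO BAT. The ranges overlapped in both tissues, with log2 fold changes of 0.27 ± 0.20 (edgeR adjusted p = 0.277) and -0.11 ± 0.17 (adjusted p = 0.589), the latter above 0 under scaling by library size (0.16) and in limma on log2 FPKM (0.15 and 0.17 for pseudocounts of 1 and 0.1). Its window holds E2F motifs, as that of Mcm5 does.

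Per length, Mcm7 made up 35.9% ± 8.52 (SD, n = 5) of the summed FPKM of the 6 subunits in Control iWAT and 44.7% ± 4.19 in Control BAT, the largest share in both. In Ai-α4KO tissue its share was 19.7% ± 1.62 in iWAT and 18.7% ± 1.46 in BAT, below that of Mcm3 and of Mcm6 in each. The libraries did not overlap, at 26.2% to 47.3% against 18.1% to 22.1% in iWAT and 38.2% to 49.4% against 16.4% to 19.98% in BAT. Mcm4 kept a share of 15.1% to 16.0% in the 4 group means. Exons of Mcm7 overlap those of Ap4m1 and Cops6 on the opposite strand over 7.3% and 1.4% of its exon bases.

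**Figure D4:**
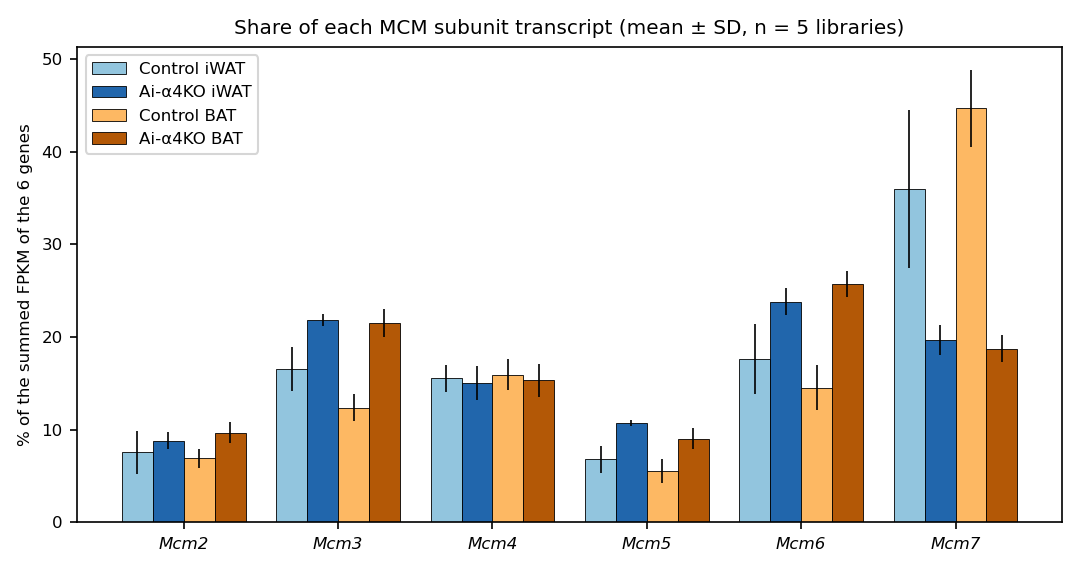
Share of each of the 6 MCM subunit genes in their summed FPKM, as the mean of 5 libraries per group with the SD as error bar. Mcm7 is at 35.9% and 19.7% in Control and Ai-α4KO iWAT, and at 44.7% and 18.7% in BAT, while Mcm3, Mcm5 and Mcm6 take larger shares in Ai-α4KO tissue.

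Factors that activate the helicase did not move together. Mcm10, needed to start unwinding, was at 2.61, 0.890, 1.995, 2.35 and 2.18 CPM in Control iWAT and at 10.6, 12.2, 12.0, 9.95 and 12.0 CPM in Ai-α4KO iWAT. In BAT Mcm10 was at 1.26, 0.691, 0.656, 0.812 and 0.963 CPM in the Control libraries and at 5.95, 4.51, 4.82, 4.28 and 3.58 CPM in the Ai-α4KO libraries. It rose without overlap, by 2.498 ± 0.26 in iWAT (edgeR adjusted p = 1.73e-05) and 2.40 ± 0.24 in BAT (adjusted p = 4.42e-06). Cdc45, which travels with the active helicase, was at 8.20, 8.74, 12.1, 9.64 and 10.5 CPM in Control iWAT and at 12.2, 14.2, 10.96, 9.57 and 10.5 CPM in Ai-α4KO iWAT, ranges that overlap. In BAT Cdc45 was at 9.41, 8.22, 11.5, 9.17 and 8.40 CPM in Control and at 6.47, 5.71, 5.58, 6.28 and 4.50 CPM in Ai-α4KO libraries, all of them below Control. The log2 fold changes were 0.23 ± 0.15 (adjusted p = 0.238) and -0.71 ± 0.15 (adjusted p = 0.00176), and their difference of -0.90 ± 0.21 passed the threshold with an edgeR adjusted p of 0.00821. Cdc45 shares 6.0% of its exon bases with Ufd1 on the opposite strand. Of the GINS subunits, Gins1 rose by 1.36 ± 0.24 in BAT and gave 0.71 ± 0.18 in iWAT, while Gins2 gave 0.99 ± 0.19 and 0.76 ± 0.20 in iWAT and BAT, past the adjusted p and under 2-fold in both. Gins2 shares 67.3% of its exon bases with Gse1 and had fractional counts in all 20 libraries, so its reads are uncertain.

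Among the polymerases, Pole2, a non-catalytic subunit of leading-strand polymerase epsilon, changed most. In iWAT Pole2 was at 2.84, 2.90, 2.91, 2.998 and 1.77 CPM in the Control libraries and at 7.16, 9.22, 9.55, 8.63 and 10.2 CPM in the Ai-α4KO libraries. In BAT Pole2 was at 1.26, 0.582, 1.01, 0.745 and 1.16 CPM in the Control libraries and at 4.05, 4.46, 3.57, 4.40 and 3.48 CPM in the Ai-α4KO libraries. It rose by 1.74 ± 0.19 in iWAT (edgeR adjusted p = 2.33e-05) and 2.08 ± 0.24 in BAT (adjusted p = 1.47e-05), with no overlap. The catalytic subunit Pole rose by 1.30 ± 0.32 in BAT and gave 0.73 ± 0.18 in iWAT. The primase genes showed the other order. Pola1, the catalytic subunit of polymerase alpha, and Prim1, the small primase subunit, rose by 1.16 ± 0.15 and 1.22 ± 0.17 in iWAT and gave 0.62 ± 0.19 and 0.79 ± 0.21 in BAT, below the threshold, though neither differed between tissues by the interaction test (edgeR adjusted p = 0.159 and 0.306). Pold1, the catalytic subunit of lagging-strand polymerase delta, gave 0.20 ± 0.29 and -0.18 ± 0.19, and its sign in BAT turned under scaling by library size (0.085) and in limma on log2 FPKM (0.060 and 0.094).

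Of the 7 genes of the sliding clamp, its loader and lagging-strand maturation, 4 were called higher in iWAT and 3 in BAT. Over all genes tested the shares called higher were 11.3% and 18.2%. Fen1, the flap endonuclease that trims Okazaki fragments, was at 9.82, 5.67, 7.62, 9.77 and 6.15 CPM in Control iWAT and at 24.1, 29.7, 27.4, 21.7 and 27.2 CPM in Ai-α4KO iWAT. In BAT Fen1 was at 3.56, 3.35, 3.54, 5.65 and 3.35 CPM in the Control libraries and at 14.7, 16.0, 13.8, 11.004 and 11.8 CPM in the Ai-α4KO libraries. It rose by 1.74 ± 0.18 in iWAT (edgeR adjusted p = 1.73e-05) and 1.79 ± 0.19 in BAT (adjusted p = 6.6e-06) without overlap, but 78.8% of its exon bases are shared with the opposite-strand gene Gm10143. Pcna, the clamp itself, was the most abundant member per length in all 4 groups, at mean FPKM of 44.0 and 132 in Control and Ai-α4KO iWAT and 35.2 and 92.5 in BAT, and rose by 1.46 ± 0.14 and 1.13 ± 0.14. Lig1, the ligase that seals the fragments, rose by 1.01 ± 0.19 and 1.05 ± 0.24, close to the 2-fold limit, and lost its call in 5 of 10 iWAT fits and 3 of 10 BAT fits that left out 1 library. Of the clamp loader genes, Rfc5 was called in iWAT (1.12 ± 0.13) and missed 2-fold in BAT (0.98 ± 0.15), Rfc3 gave 0.64 ± 0.13 and 0.45 ± 0.16, and Rfc4 gave 0.88 ± 0.24 and 0.41 ± 0.23. Rfc4 shares 12.7% of its exon bases with Eif4a2 on the opposite strand and had fractional counts in all 20 libraries. Rpa2, a subunit of the single-strand binding protein, gave 0.26 ± 0.12 and 0.54 ± 0.17.

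The nucleotide supply genes included some of the steepest rises. Tk1, cytosolic thymidine kinase of the salvage pathway, was at 4.26, 1.68, 1.92, 3.55 and 2.55 CPM in Control iWAT and at 15.6, 16.8, 15.4, 12.6 and 15.3 CPM in Ai-α4KO iWAT. In BAT Tk1 was at 0.130, 0.764, 0.830, 0.745 and 0.617 CPM in the Control libraries and at 7.26, 6.93, 8.51, 6.87 and 4.64 CPM in the Ai-α4KO libraries. The lowest Ai-α4KO library was above the highest Control library in each tissue, and the log2 fold changes were 2.43 ± 0.26 (edgeR adjusted p = 1.97e-05) and 3.45 ± 0.35 (adjusted p = 5.16e-06). Control BAT held 3 to 22 Tk1 counts per library, 81 in all, against 1155 in Ai-α4KO BAT. The ratio was 10.8 with an exact 95% interval of 8.64 to 13.7 for counting error. Rrm2, the S phase subunit of ribonucleotide reductase, rose by 2.66 ± 0.23 and 2.77 ± 0.23, more than its partner subunit Rrm1, which rose by 1.26 ± 0.09 in iWAT and gave 0.61 ± 0.14 in BAT. The log2 ratio of Rrm2 to Rrm1 CPM lay between -3.28 and -2.10 in Control iWAT and between -1.79 and -0.83 in Ai-α4KO iWAT. It lay between -4.71 and -3.85 in Control BAT and between -2.59 and -1.77 in Ai-α4KO BAT, so the genotypes did not overlap in either tissue. Tyms, which makes thymidylate, rose by 1.29 ± 0.13 in iWAT and gave 0.46 ± 0.20 in BAT. Dut, which removes dUTP, gave 0.15 ± 0.16 in iWAT and -0.51 ± 0.13 in BAT, where all Ai-α4KO libraries lay below Control and the adjusted p was 0.00387.

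Chromatin genes were called higher for 4 of 5 members in iWAT and 3 of 5 in BAT, where 11.3% and 18.2% of all genes tested were. Hells, a remodeller needed for DNA methylation, was at 4.14, 2.80, 3.03, 4.48 and 2.77 CPM in Control iWAT and at 10.97, 16.1, 17.2, 14.6 and 18.5 CPM in Ai-α4KO iWAT. In BAT Hells was at 1.87, 1.82, 1.44, 1.73 and 2.77 CPM in the Control libraries and at 7.73, 6.01, 11.4, 4.34 and 5.37 CPM in the Ai-α4KO libraries. It rose without overlap by 2.16 ± 0.20 (edgeR adjusted p = 1.04e-05) and 1.85 ± 0.28 (adjusted p = 0.000133). Chaf1a and Chaf1b, subunits of the chromatin assembly factor that places histones on new DNA, rose by 1.31 ± 0.15 and 1.84 ± 0.32 in iWAT and by 1.36 ± 0.19 and 2.17 ± 0.25 in BAT, although Chaf1a shares 52.5% of its exon bases with Ubxn6 on the opposite strand. Uhrf1, which brings the maintenance methyltransferase to hemimethylated DNA, divided the tissues. It was at 8.58, 3.50, 4.11, 9.83 and 5.44 CPM in Control iWAT and at 24.5, 23.7, 23.3, 20.8 and 29.4 CPM in Ai-α4KO iWAT, a rise of 1.95 ± 0.28 (edgeR adjusted p = 0.00014). In BAT Uhrf1 was at 11.9, 3.60, 10.9, 11.6 and 10.3 CPM in Control and at 11.8, 9.47, 15.6, 8.86 and 8.08 CPM in Ai-α4KO libraries, which overlapped, with a log2 fold change of 0.15 ± 0.29 (adjusted p = 0.666). Dnmt1, that methyltransferase, gave 0.73 ± 0.16 and 0.40 ± 0.20.

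**Figure D5:**
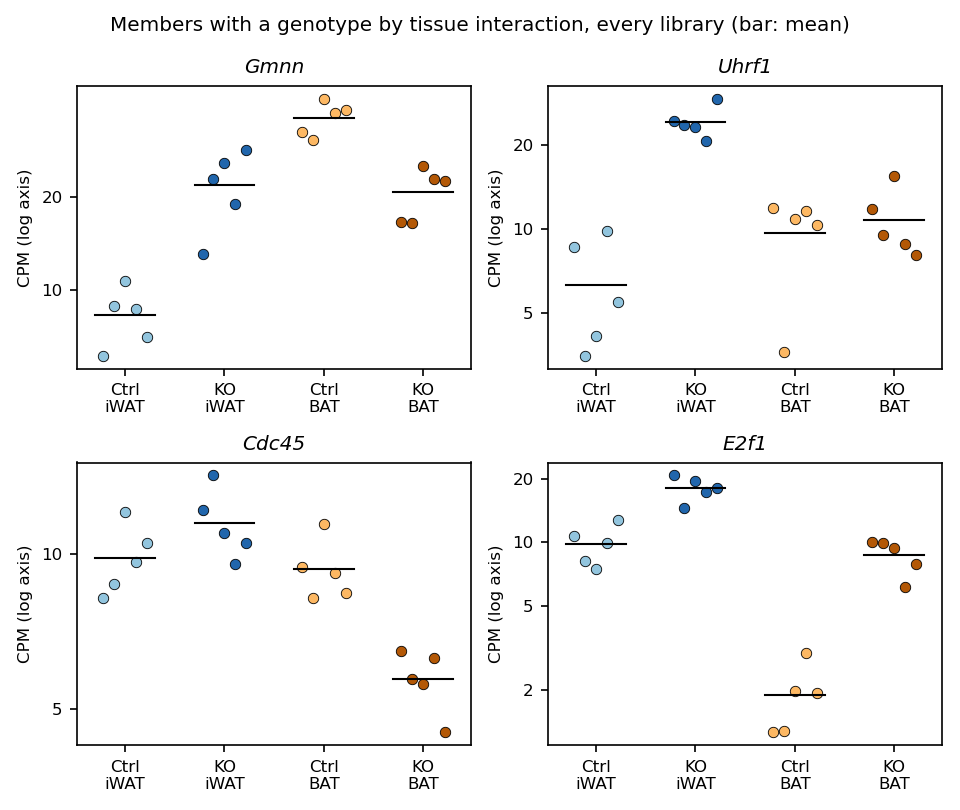
CPM in each of the 20 libraries, on log axes, for the 4 members whose genotype difference differed between tissues; CPM were scaled within each tissue and bars mark group means. Gmnn rises in iWAT and is lower in Ai-α4KO BAT, Uhrf1 rises in iWAT with overlapping BAT groups, Cdc45 is lower in Ai-α4KO BAT, and E2f1 rises more in BAT.

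The repair genes moved unequally. Exo1, an exonuclease of mismatch repair and end resection, was at 0.496, 0.528, 0.559, 0.556 and 0.684 CPM in Control iWAT and at 2.77, 3.33, 3.11, 2.38 and 3.26 CPM in Ai-α4KO iWAT. In BAT Exo1 was at 0, 0.255, 0.0874, 0.169 and 0.231 CPM in the Control libraries and at 1.16, 0.898, 0.923, 0.744 and 1.16 CPM in the Ai-α4KO libraries. It rose without overlap by 2.39 ± 0.21 (edgeR adjusted p = 6.79e-06) and 2.65 ± 0.48 (adjusted p = 0.000437). The BAT change rests on 20 counts in all Control libraries against 166, a ratio of 6.30 with an exact 95% interval of 3.95 to 10.6 for counting error. Brca1, which acts in recombination repair, rose by 2.36 ± 0.26 in iWAT and 2.36 ± 0.28 in BAT. Brca2, which also acts in recombination repair, gave 0.49 ± 0.19 and 0.28 ± 0.21 and was called in neither tissue. Blm, a helicase that dissolves recombination intermediates, rose by 1.32 ± 0.18 in iWAT and gave 0.68 ± 0.23 in BAT, and Tipin, of the fork protection complex, gave 0.75 ± 0.17 and 0.74 ± 0.17.

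The regulators of S phase entry also divided within families. E2f8, an E2F protein that represses E2F targets, was at 1.13, 0.857, 0.718, 0.618 and 0.715 CPM in Control iWAT and at 4.57, 4.95, 6.58, 5.14 and 5.59 CPM in Ai-α4KO iWAT. In BAT E2f8 was at 0.217, 0.291, 0.306, 0.169 and 0.501 CPM in the Control libraries and at 3.09, 2.37, 3.93, 3.81 and 2.35 CPM in the Ai-α4KO libraries. It rose without overlap by 2.72 ± 0.22 (edgeR adjusted p = 4.8e-06) and 3.37 ± 0.32 (adjusted p = 2.95e-06). The BAT change of E2f8 rests on 38 counts in all Control libraries against 517. That is a ratio of 10.3 with an exact 95% interval of 7.43 to 14.8 for counting error. E2f1, an activating E2F, was at 10.8, 8.15, 7.46, 9.89 and 12.8 CPM in Control iWAT and at 20.8, 14.6, 19.6, 17.4 and 18.1 CPM in Ai-α4KO iWAT, and at 1.26, 1.27, 1.97, 2.98 and 1.93 CPM in Control BAT and 10.1, 9.95, 9.43, 6.16 and 7.92 CPM in Ai-α4KO BAT. Its log2 fold change was 0.88 ± 0.17 in iWAT, past the adjusted p (0.000991) and under 2-fold, and 2.20 ± 0.26 in BAT (edgeR adjusted p = 1.59e-05). Cyclin E2 (Ccne2), a partner of Cdk2 at S phase entry, rose by 1.51 ± 0.24 in iWAT and gave 0.77 ± 0.27 in BAT, whereas its relative Ccne1 gave 0.44 ± 0.23 and 0.27 ± 0.32 and was called in neither. Ccne2 shares 17.4% of its exon bases with Ints8 on the opposite strand, and E2f8 shares 11.2% with Gm2788.

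Whether the genotype difference was the same in both depots was tested in a fit of all 20 libraries, with an edgeR adjusted p below 0.01 as the call. It differed for 4 members, where 4.86% of 15230 genes tested differed. Besides Gmnn (-2.16) and Cdc45 (-0.90), the difference in BAT minus that in iWAT was -1.76 ± 0.42 for Uhrf1 (edgeR adjusted p = 0.00974) and 1.36 ± 0.30 for E2f1 (adjusted p = 0.00634). The share of members is thus not far from the background, and the 4 genes are not alike in strength. Gmnn kept the call in all 11 alternative settings and in all 20 fits without 1 library, E2f1 in 7 and 14, Uhrf1 in 4 and 2, and Cdc45 in 2 and 4. Without Control iWAT libraries 1 and 4 the count was 2, where 2.66% of genes tested passed with a value above 0 and 0.44% below. For the other 42 members a difference between tissues was not detected, with adjusted p values from 0.0168 (Rrm1) upward.

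In Control mice, a minority of the members differed between the depots, nearly all of them lower in BAT. Of 45 members tested (Orc1 did not pass the filter on low counts), 14 were called lower in Control BAT and 1, Gmnn, higher, where 14.7% of 14260 genes tested were called lower and 7.22% higher. The steepest were E2f1 at -2.26 ± 0.27 (edgeR adjusted p = 4.94e-05) and Tk1 at -2.05 ± 0.42 (adjusted p = 0.00186), and the others were Cdt1, Mcm2, Mcm3, Mcm5, Mcm6, Pole, Pole2, Rrm2, Chaf1a, Chaf1b, Brca1 and E2f8. The median over the members was -0.77, beside -0.01 over all genes. The number called depended on the libraries used. Without Control iWAT libraries 1 and 4, which carried lymphocyte transcripts, 5 of 45 members were called lower. This share was no larger than the 12.7% of 14416 genes tested in that fit, and the median over the members was -0.60. E2f1 kept its call there and Tk1 did not. That fit also has a smaller Control iWAT group, and the part of the lymphocyte transcripts was not tested. Without Control iWAT library 1 or library 4 alone, 10 members were called lower, where 13.4% and 14% of genes tested were. The number called lower was 9 without Control BAT library 2 or without Control BAT library 3, where 13.2% and 12.8% of genes tested were. Gmnn was called higher in each of these fits, and by 2.23 ± 0.16 with all libraries.

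Other genes of the same pathway, 86 genes outside the 46, had smaller median changes. Both lists were chosen with earlier results of these data known, so this contrast is only a description of the 2 lists. In iWAT 27 of 85 tested were called higher and 3 lower with a median log2 fold change of 0.35, shares of 31.8% and 3.53% beside 11.3% and 10.7% of all genes. In BAT 21 of 85 were called higher and 4 lower with a median of 0.17, shares of 24.7% and 4.71% beside 18.2% and 13.3% of all genes. The same 20 genes were called higher in both tissues, among them Ccna2, the S phase cyclin A2 (2.67 and 3.47 in iWAT and BAT), the checkpoint mediator Clspn (2.45 and 3.07), the replication initiator Ticrr (2.36 and 2.58) and the nuclease-helicase Dna2 (2.51 and 2.19). Called lower in both were 2 inhibitors of cyclin-dependent kinases, Cdkn1c (-2.35 and -1.34) and Cdkn2c (-1.32 and -1.68). Genes of fork protection and repair accounted for 12 of the 27 rises in iWAT and 10 of the 21 in BAT, out of 19 such genes, whereas 0 of 4 other origin recognition genes and 1 of 23 tested regulators of G1/S were called higher in each tissue (Cdkn1a at 1.56 in iWAT, Rbl1 at 1.06 in BAT). No gene of this list was called in opposite directions.

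Some sets of cell type markers rose with the members and others fell, and their part in these results was not tested. Of all genes tested, 11.3% were called higher and 10.7% lower in iWAT, and 18.2% and 13.3% in BAT. All 10 mitosis genes were called higher in both tissues. Their summed level, scaled over all 20 libraries, was 44.5 to 72.8 CPM in Control iWAT, 241 to 422 CPM in Ai-α4KO iWAT, 8.89 to 19.05 CPM in Control BAT and 107 to 185 CPM in Ai-α4KO BAT, and Mki67, a marker of cycling cells, rose by 2.84 ± 0.22 in iWAT and 3.75 ± 0.25 in BAT. Macrophage genes were called higher for 7 of 7 tested in each tissue, with sums of 1092 to 1873 CPM in Control and 6810 to 8958 CPM in Ai-α4KO iWAT, and 219 to 499 CPM in Control and 3969 to 6792 CPM in Ai-α4KO BAT. Genes common to leukocytes were called higher for 5 of 6 in iWAT and 6 of 6 in BAT, and Ptprc (CD45) rose by 2.04 ± 0.29 and 3.65 ± 0.24. By the interaction test 5 of these 6 genes were called, all with a larger difference in BAT. Of all genes tested, 4.86% were called in either direction. For Ptprc the interaction was 1.63 (edgeR adjusted p = 0.00869). Control iWAT libraries 1 and 4 are part of this test, and the genes summed to 380 to 1158 CPM in Control iWAT, with a median of 449 CPM. The bearing of these interactions on the members was not tested. Adipocyte genes were called lower for 6 of 8 in each tissue, with sums of 21326 to 29643 CPM in Control against 10664 to 15305 CPM in Ai-α4KO iWAT and 20896 to 23839 against 12789 to 15137 CPM in BAT. Adipoq, the adiponectin gene, fell by 2.21 ± 0.22 and by 2.15 ± 0.19, and the brown adipocyte gene Ucp1 fell by 6.57 ± 1.07 in iWAT and by 2.39 ± 0.29 in BAT. Neutrophil genes were called higher for 4 of 5 and 5 of 5, and adipocyte progenitor genes for 1 of 6 and 2 of 6. T cell genes were called higher for 0 of 6 and 4 of 6, and B cell genes for 0 of 7 and 1 of 3. The iWAT counts for both sets include Control iWAT libraries 1 and 4, which carried lymphocyte transcripts. In Control iWAT the T cell genes summed to 8.27 to 242 CPM, with a median of 10.99 CPM. In Ai-α4KO iWAT they summed to 14.5 to 51.5 CPM. All 7 B cell estimates in iWAT were below 0, and 1 gene was called lower. Counts without these libraries are not given here. Genes of germinal centre B cells were called higher for 2 of 4 in each tissue. Skeletal muscle genes were called higher for 0 of 6 and 4 of 6. Endothelial genes were called lower for 2 of 4 and 3 of 4, and brown adipocyte genes for 3 of 4 and 2 of 4. No listed marker in the table was at 0 in all libraries, and Adgre1, Trac and Ly6g were not analysed here.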

How the data were processed

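RNA was taken from 20 mouse adipose tissue samples (5 per group), and poly(A) libraries were made with a strand-marking kit. Per the labels, the authors used bcl2fastq 2, STAR 2.5.3a and the mm10 build. The counting tool and its use of strand are not given in the sources used here. The deposited table gives estimated counts per gene (76.7% of nonzero values whole; rounded here) and, by the authors, FPKM. Groups and replicate numbers came from the sample labels. Totals were 24023371 to 50384446 counts. Exons of 15 members overlap a gene on the opposite strand in GENCODE vM21, so their reads cannot be told apart without strand. Counts were fractional in all 20 libraries for Gins2 and Rfc4, in 15 for Tk1 and in 14 for Pcna.

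The main test was edgeR 4.0.16 (R 4.3.3): filterByExpr, TMM scaling within each comparison, quasi-likelihood fit, p-values adjusted over all genes tested. Genes were called at an adjusted p below 0.01 and at least 2-fold (the interaction without a fold limit). CPM are TMM-scaled. Alternatives were DESeq2 1.42.0, limma 3.58.1 on log2(FPKM + 1) and log2(FPKM + 0.1), other scalings, filters and thresholds, a replicate block, and each library left out. The replicates' separate origin in animals is not stated, so p-values measure the spread between these samples. With 5 against 5 libraries, the smallest exact permutation p is 0.0079. Scripts were tested on simulated counts.

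The members and gene lists were chosen with earlier results of these data known. Values in every library were given for the member of largest mean absolute log2 fold change in each role, for members called against the rest or with an interaction, and for Igbp1. Other pathway genes were named when called in both tissues (at most 5 per direction), and a gene that this rule names is not reported here. Promoters were printed for 4 members holding an E2F motif (1 per role) and 1 without. Mcm7 was detailed after its values were seen.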

Additional observations from a re-analysis of the deposited data

Results flagged for a closer look

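A library stood far from the other 4 of its group in 9 of 184 combinations of member, tissue and genotype, by Dixon's criterion at 95%, which chance passes in about 1 of 20 groups. High libraries were Pola1 in Control iWAT library 2 (14.4 CPM, others 10.4 to 11.4), Pold1 in Control iWAT library 1 (16.3 CPM, others 5.84 to 7.91), Cdc6 in Control BAT library 4 (2.23 CPM, others 1.04 to 1.26), Gins2 in Control BAT library 5 (3.51 CPM, others 2.27 to 2.49), Fen1 in Control BAT library 4 (5.65 CPM, others 3.35 to 3.56) and Rrm2 in Ai-α4KO BAT library 3 (19.1 CPM, others 10.6 to 12.8). Low libraries were Mcm3 in Ai-α4KO iWAT library 4 (49.0 CPM, others 55.8 to 56.7), Pole2 in Control iWAT library 5 (1.77 CPM, others 2.84 to 2.998) and Uhrf1 in Control BAT library 2 (3.60 CPM, others 10.3 to 11.9).

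The genotype difference in BAT minus that in iWAT passed the edgeR interaction test for Gmnn (-2.16 on the log2 scale), Uhrf1 (-1.76), Cdc45 (-0.90) and E2f1 (1.36). For Gmnn the 5 Ai-α4KO libraries lay above all Control libraries in iWAT and below all of them in BAT. Over all settings and left-out libraries the adjusted p ran from 1.77e-11 to 0.000619 for Gmnn, from 9.52e-05 to 0.102 for E2f1, from 0.000790 to 0.0248 for Uhrf1 and from 0.00181 to 0.0609 for Cdc45.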

How the results depend on the processing

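Of the 29 members called higher in iWAT, 19 kept the call in every alternative and left-out library, as did 12 of 24 in BAT. The main exception was limma on log2(FPKM + 1), with 19 members higher in iWAT and 14 in BAT, where 9.5% and 14.8% of genes tested were. That scale shrinks changes of genes under 1 FPKM by its construction. In iWAT the members that lost the call there included Pola1 and Lig1, with mean FPKM of 1.83 and 2.38 in Control and 4.49 and 5.21 in Ai-α4KO libraries. The cause of the lost calls was not tested. Leaving out 1 library gave 28 to 31 members higher in iWAT and 22 to 25 in BAT. Of genes tested, 9.87% to 11.8% and 16.6% to 18.2% were higher in these fits. At 1.5-fold, 2 members were called lower in BAT, where 21.5% of genes tested were. The calls of Lig1, and in BAT those of Mcm4 and Pcna, were lost without some library. In BAT Mcm7 turned above 0 under library size (0.16) and limma with a pseudocount of 1 (0.15) or 0.1 (0.17), as did Pold1 (0.085, 0.060 and 0.094); without 1 library Mcm7 ran from -0.21 to 0.017, Orc6 from -0.034 to 0.13 and Uhrf1 from -0.065 to 0.27, and the cause was not tested. Members with an interaction numbered 4 in the main fit, where 3.26% of genes tested passed with a value above 0 and 1.6% below. They numbered 2 under library size, upper quartile, no filter and at least 10 counts. The number was also 2 in limma with a pseudocount of 1 and without Control iWAT libraries 1 and 4. In these fits 2.53% to 5.85% of genes passed above 0 and 0.44% to 1.13% below. With a pseudocount of 0.1 the number was 1 (3.35% and 0.893% of genes). At an adjusted p below 0.05 it was 7 (9.4% and 5.68%), and without 1 library 1 to 3 (2% to 5.55% and 0.605% to 1.71%). Members lower in Control BAT than Control iWAT numbered 3 in limma with a pseudocount of 1, where 8.7% of genes tested were lower. They numbered 5 without Control iWAT libraries 1 and 4 (12.7% of genes tested), and 9 to 16 without 1 library (12.8% to 14.6%). Other pathway genes lower in iWAT numbered 8 at 1.5-fold, where 16.7% of genes tested were lower. In BAT 10 were higher in limma with a pseudocount of 1, where 14.8% of genes tested were. Those lower in BAT numbered 1 under library size (8.82% of genes tested) and 2 in limma with either pseudocount (5.63% and 8.4%). They numbered 9 at 1.5-fold (21.5%) and 2 to 4 with 1 library left out (12.5% to 13.6%). Among all genes called in BAT, 57.8% were higher in the main fit, 72.0% under library size and 72.4% and 72.1% in limma with pseudocounts of 1 and 0.1; in iWAT these were 51.5%, 59.9%, 64.1% and 62.1%. The E2F motif was in 11 and CCAAT in 22 members' windows when only the 250 bases before the start were searched.

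Same-numbered libraries did not deviate together (correlations of deviations from group means from -0.51 to 0.28), so the numbers were not treated as pairs. With the replicate number as a block, 30 members were called higher in iWAT and 23 in BAT, where 10.8% and 17.5% of genes tested were. An interaction was called for 1 member, where 2.23% of genes tested passed with a value above 0 and 1.27% below. In BAT 2 other pathway genes were lower, where 12.8% of genes tested were.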

Other observations

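Besides the members, 4 of 85 tested pathway genes (4.71%, beside 4.86% of all genes tested) passed the edgeR interaction test, all with a difference in BAT below that in iWAT, and they are named after their values were seen. Cdkn1a, the p21 inhibitor of cyclin-dependent kinases, rose by 1.56 ± 0.26 in iWAT and gave -0.23 ± 0.29 in BAT, an interaction of -1.76 (adjusted p = 0.00922). The others were Asf1b, a histone chaperone (-1.04, adjusted p = 0.00897), Cdk2, the kinase of S phase entry (-0.71, adjusted p = 0.00556), and Rnaseh2a, which removes ribonucleotides from DNA (-0.51, adjusted p = 0.00922).

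Within groups, some libraries were the highest or lowest for many members, and the share over all genes was not calculated. Others were mixed: Control iWAT library 1 was the highest for 16 members and the lowest for 11. Ai-α4KO iWAT library 1 was the highest for 9 and the lowest for 17. Ai-α4KO BAT library 5 was the lowest of its group for 22 of the 46 members and library 3 the highest for 21. Control BAT library 4 was the highest for 20, Control iWAT library 2 the lowest for 20 and Ai-α4KO iWAT library 4 the lowest for 20. The 46 members summed to 421 to 513 CPM in Control iWAT and 897 to 1076 CPM in Ai-α4KO iWAT, and to 376 to 443 CPM in Control BAT and 581 to 779 CPM in Ai-α4KO BAT, with no overlap within a tissue.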
